A study of Mus musculus with 4 samples.

Results

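The genes described here are the nuclear-encoded subunits of oxidative phosphorylation, taken as every listed symbol that starts with Nduf, Uqcr, Cox4, Cox5, Cox6, Cox7, Cox8 or Atp5, together with Sdha, Sdhb and Sdhc. The rule found 94 of the 16500 symbols listed in any library. For complex I these were 40 symbols of subunits and 8 of assembly factors. Complex II had 3 symbols, complex III 8, complex IV 17 and complex V 18. Despite their names, Ndufa4 (20893 UMIs) and Ndufa4l2 were counted with complex IV. Complexes III and V each include 1 pseudogene symbol. Of the 94, 91 were listed in all 4 libraries. Sdhd, Uqcr11 and the subunits encoded by mitochondrial DNA were not analysed here. The rule used names only.

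The study profiled intraepithelial leukocytes (immune cells that lie between the epithelial cells of the gut lining) from the stomach, small intestine, cecum and colon of C57BL/6 mice labelled as having no infection. Live cells positive for CD45, the surface protein shared by leukocytes, were sorted on the CD45.2 form and run on droplets with 3′ single-cell chemistry. Each tissue gave 1 library; the labels name neither the age nor the number of mice, nor whether animals were pooled, and the extraction text, which is the same in all 4 records, speaks of colons only. The tissue labels were used as given.

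In oxidative phosphorylation, complex I (NADH dehydrogenase) and complex II (succinate dehydrogenase) pass electrons to ubiquinone, complex III passes them on to cytochrome c, and complex IV (cytochrome c oxidase) passes them to oxygen. Complexes I, III and IV move protons across the inner mitochondrial membrane, and complex V (ATP synthase) uses that gradient to make ATP. Each of the complexes except complex II also holds subunits encoded in the mitochondrion, and lymphocytes raise both respiration and glycolysis when they are activated to divide.

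Libraries held 3171 to 4244 cells after 5 barcodes were removed, with medians of 2305, 2475, 1707 and 2986 molecules (UMIs, unique molecular identifiers) per cell; here and below, values for all libraries follow the order stomach, small intestine, cecum, colon. Pairs of libraries shared 1 to 6 cell barcodes. Cells were placed in gates by marker genes and summed within a gate and library, and values are counts per 1000000 UMIs of that sum (CPM). In droplet data of this chemistry 1 molecule gives 1 tag near its 3′ end, so no length correction was applied. The balance of short and long members still differed between libraries, as given below. Cells that met more than 1 gate (52 to 278 per library) were left out; no doublet caller was run. In the T gate the CD3 chain genes together stood at 4048 to 5969 CPM, against at most 19.6 CPM in the B, NK/ILC1, macrophage, mast, plasma and Siglech dendritic gates. Markers of erythroid cells were at 0 in every gate. Epithelial markers stood at 8.85 CPM in stomach T cells and 121 to 221 CPM in T cells of the other 3 libraries, and their part in the levels below was not tested except where stated.

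The members held 814543 UMIs, 1.92% of all UMIs. Complex I gave 29.6% of them, complex IV 29.0%, complex V 26.9%, complex III 10.7%, complex II 2.20% and the complex I assembly factors 1.52%. The 10 most abundant members gave 35.8%. Cox8a, a small subunit of complex IV, had 52659 UMIs, and Uqcrh, the hinge subunit of complex III, had 36740. Atp5e, the epsilon subunit of the ATP synthase motor, had 29382, and Ndufa13, an accessory subunit of complex I, had 16859. Sdha, the flavoprotein that oxidises succinate, had 7611, and Ndufaf8 led the assembly factors with 3780. At the other end, 3 members were listed in 1 library each and had under 10 UMIs: Ndufa8 in colon with 3, Cox4i2 in stomach with 3 and Ndufa4l2 in small intestine with 8. Atp5d, the delta subunit of complex V, had 207 UMIs, and the pseudogene symbol Uqcrh-ps1 had 224. Reads of near-identical copies such as Uqcrh and Uqcrh-ps1, Atp5c1 and Atp5c1-ps, or Ndufb4, Ndufb4b and Ndufb4c could have been divided between symbols.

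In T cells the members summed to 20840, 18665, 18404 and 23265 CPM, so colon stood highest and cecum and small intestine lowest. The exact 95% Poisson interval, which covers counting error only, was 23177 to 23353 CPM in colon and 18301 to 18507 in cecum. NK/ILC1 cells (natural killer cells and their tissue-resident relatives) gave 19610, 16591, 17156 and 21020 CPM, again with colon highest. B cells gave 18519, 20081, 15039 and 15500 CPM, a different order. Macrophages had the lowest sums of the gates other than plasma cells in stomach and small intestine, with 14399 CPM in stomach and 13549 in small intestine, and they reached 18868 in colon. Mast cells gave 18745 CPM in stomach and 17252 in small intestine. Siglech dendritic cells, which carry markers of plasmacytoid dendritic cells, gave 19527 CPM in small intestine and 17115 in cecum.

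**Figure D1:**
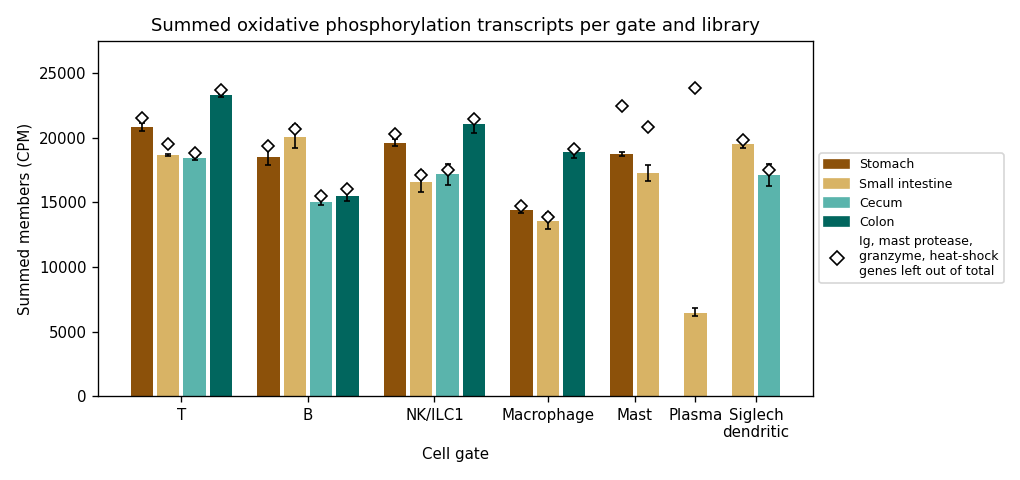
Summed CPM (y axis) of all members in each gate (x axis) and library (bar colour); error bars are exact 95% Poisson intervals for counting error only, and diamonds give the sum when immunoglobulin, mast protease, granzyme and heat-shock genes are left out of the total. T cells run from 18404 CPM in cecum to 23265 in colon, and the plasma bar of 6475 CPM has its diamond at 23836.

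Plasma cells, the antibody-secreting form of B cells, had a low sum that moved with the choice of total. The 35 plasma cells of the small intestine summed to 6475 CPM (6169 to 6792), the lowest value of any gate. Immunoglobulin and the other genes set aside made up 72.8% of their UMIs, and with those genes left out of the total the members came to 23836 CPM. In the plasma gate widened to 180 cells that may also carry B-cell markers, an alternative chosen after the data were seen, the sum was 6273 CPM, and 24049 with the same genes left out. In mast cells of the stomach, proteases and the other genes set aside were 16.6% of UMIs, and leaving them out moved the sum from 18745 to 22466 CPM.

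Complex shares of the member UMIs ran within narrow ranges in T cells: complex I from 29.4% in colon to 30.8% in stomach, complex IV from 27.8% to 29.0%, and complex V from 26.4% to 27.9%. Complex II had its highest share in cecum, 2.66%, and its lowest in colon, 1.88%. The largest departure from this pattern was in Siglech dendritic cells, where complex IV took 35.3% in small intestine and 32.4% in cecum, and in plasma cells, where complex I took 36.5%. In the Siglech cells a single complex IV gene, Cox6a2, held 1637 of the 19527 CPM in small intestine.

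Gates were then compared with T cells inside each library, with the library as a block, in 1 edgeR quasi-likelihood fit of 19 sums with 10 residual degrees of freedom; calls are at a Benjamini-Hochberg adjusted p under 0.05 over all 8550 genes tested. Of the 91 members listed in all libraries, 82 passed the filter on low counts. Whether same-tissue sums came from 1 mouse or several is not stated. With the library as a block, p-values measure how unevenly differences between gates ran from library to library, each of another tissue. That spread was shared over the gates.

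B cells had lower levels of 10 members and higher levels of none. The 10 are 12.2% of the 82 members, beside a background of 13.9% of all genes called lower, so that share is near the background. On the higher side, the 0 members stood beside 13.8% of all genes. The members with the largest falls were Cox7a2 (a small complex IV subunit), 1.84-fold lower, and 3 complex I subunits, Ndufa10 1.81-fold, Ndufv3 1.66-fold and Ndufa13 1.63-fold lower. Ndufv3 fell by 0.73 on the log2 scale (SE 0.18, adjusted p 0.00297). The median member stood at -0.20 on the log2 scale, against -0.04 for all genes. Below 0 lay 66 of 82 members, beside 4489 of 8550 genes. The count of calls rested on single libraries: it was 4 without cecum and 2 without colon, and 4 with stricter gates. Scaled by total UMIs it was 19, all lower, with the median gene at -0.15. Of all 8550 genes, 1471 were then called lower and 1019 higher.

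NK/ILC1 cells showed no called member in edgeR, with 2 members at an unadjusted p under 0.05; DESeq2 also called 0, with 1 at an unadjusted p under 0.05. The background in this comparison was 2.41% of all genes. The median member stood at -0.14 on the log2 scale and the median gene at -0.05.

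In macrophages with the trimmed-mean (TMM) scaling, 4 members were called higher and 1 lower. The background was 23.3% of genes called higher and 18.5% lower. Scaled by total UMIs alone, 0 members were higher and 39 lower, beside 1446 and 3248 of 8550 genes. That scaling moved the median of all genes from -0.08 to -0.51, and relative to the median gene the median member stood at 0.00 in the first and 0.01 in the second. Ndufb8 and Ndufc2, accessory subunits of complex I, were 1.76-fold higher each, Sdhb, the iron-sulfur subunit of complex II, 1.70-fold, and Atp5l, the g subunit of ATP synthase, 1.36-fold. Sdhb had 184 CPM in stomach, 191 in small intestine and 210 in colon macrophages, beside 181, 131 and 150 CPM in T cells of those libraries. Ndufaf4, an assembly factor of complex I, was 2.03-fold lower (log2 -1.02, SE 0.33, adjusted p 0.0158 in edgeR). Calls numbered 3 without the stomach library.

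Mast cells had 14 members called higher and 1 lower with TMM scaling, beside 13.5% of all genes called higher and 13.1% lower. Scaled by total UMIs, 0 members were higher and 7 lower, beside 692 and 2290 of 8550 genes. The 14 are 17.1% of 82 members. Total scaling moved the median gene from -0.00 to -0.46, and relative to it the median member stood 0.24 higher in the first and 0.25 higher in the second. The members called higher came from complex I (5 of 36), III (1 of 7), IV (4 of 13) and V (4 of 17). Ndufa6, a complex I subunit, had 70.2 CPM in stomach and 64.0 in small intestine mast cells against 35.4 and 47.2 in T cells, and was 2.41-fold higher in the fit (log2 1.27, SE 0.34, adjusted p 0.00757 in edgeR). Atp5g2, which encodes the c-ring subunit of ATP synthase, had 264 and 179 CPM against 177 and 118, and was 1.88-fold higher. Uqcrh had 1106 and 1069 CPM against 942 and 848, and was 1.67-fold higher, as was Atp5f1, the b subunit of the stator. Ndufs4, a late-joining subunit of complex I, went the other way, with 71.1 and 76.8 CPM against 178 and 150 in T cells (1.52-fold lower, adjusted p 0.0448 in edgeR). Only stomach and small intestine held enough mast cells for a sum, and without the cecum or colon library, which enter the fit through other gates, 4 and 3 members were called. Without the library block 6 were called, all higher, and with stricter gates 5. The mast markers themselves were at 22512 and 15326 CPM in these cells and at 133 and 171 in T cells of the same libraries.

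**Figure D2:**
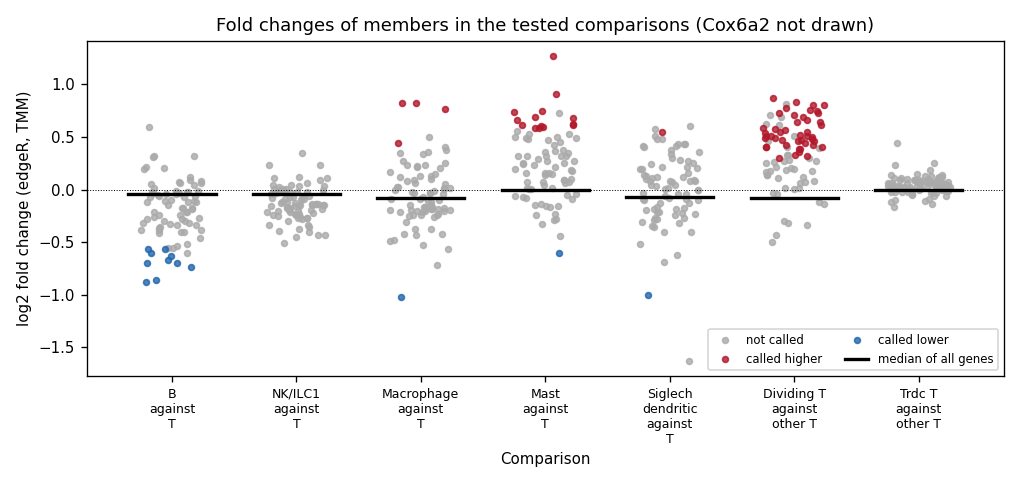
Fold changes (log2, edgeR with TMM scaling, y axis) of each member tested in 7 comparisons (x axis); red and blue points are called at an adjusted p under 0.05, grey points are not, and black bars give the median of all genes; Cox6a2 is not drawn. The dividing T cells carry 45 of the red points. Scaling by total UMIs lowers the median gene of the mast, macrophage and Siglech gates. Member calls are then 0 higher and 7 lower for mast, beside 692 and 2290 of 8550 genes. They are 0 and 39 for macrophage, beside 1446 and 3248, and 1 and 2 for Siglech, beside 1082 and 1371. The median member relative to the median gene is at 0.24 and 0.25 for mast under TMM and total scaling. It is at 0.00 and 0.01 for macrophage, and 0.11 and 0.11 for Siglech.

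Dividing T cells showed the broadest shift of the respiratory genes. These are T-gate cells with UMIs of at least 2 of 7 cell-division genes (Mki67, Top2a, Birc5, Ube2c, Cdk1, Ccna2 and Nusap1): 108 cells in the small intestine, 39 in the cecum and 101 in the colon, with 7 in stomach, too few for a sum. Values for these 3 libraries are given in that order. Members summed to 23790, 24247 and 29154 CPM in dividing cells, against 18199, 18217 and 22845 CPM in the other T cells. The ratio was 1.31, 1.33 and 1.28, and in every one of these libraries the dividing cells were higher. Of the members with a value, 75 of 88, 74 of 87 and 75 of 90 were higher in the dividing cells of the 3 libraries in turn. In the joint fit below, 79 of 88 tested members lay above 0 on the log2 scale, beside 4744 of 10829 genes.

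The edgeR fit of these 6 sums, with 2 residual degrees of freedom, tested 88 members and called 45 higher and 0 lower, 51.1% of them, beside 11.7% of all 10829 genes called higher and 8.83% lower. The median member was 0.41 higher on the log2 scale and the median gene was at -0.08. DESeq2 called 31 higher, all among the 45. The fit without the library block called 6. Leaving out small intestine, cecum or colon gave 32, 35 and 31 calls, of which 32, 33 and 30 were among the 45, with 1 residual degree of freedom.

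Calls were spread over the complexes. In complex V, 12 of 18 tested members rose and in complex IV 10 of 12, while complex I had 18 of 39, complex II 2 of 3, complex III 2 of 8 and the assembly factors 1 of 8. Atp5j, the coupling factor 6 subunit that ties the ATP synthase motor to its stator, had 646, 577 and 720 CPM in dividing cells. In the other T cells it had 331, 326 and 429 CPM, so no dividing sum overlapped the rest, and the fit gave 1.83-fold (log2 0.87, SE 0.10, adjusted p 1.95e-06 in edgeR). Cox5a, a complex IV subunit on the matrix side, had 826, 1182 and 889 CPM against 492, 616 and 558, a 1.75-fold rise. Cox5b, its partner that binds zinc, had 361, 223 and 434 CPM against 215, 123 and 255, a 1.74-fold rise; its dividing cecum sum lay inside the range of the other T cells, but each library's dividing cells were above the rest of that library. Ndufaf2, an assembly factor of complex I, had 58.9, 87.2 and 52.4 CPM against 31.6, 35.5 and 38.2, a 1.78-fold rise (SE 0.21 on the log2 scale, adjusted p 0.00622 in edgeR). Further down were Ndufc2 with 1.71-fold, Atp5g3 (a c-ring gene) with 1.69-fold, Ndufb8 with 1.67-fold, Atp5o with 1.66-fold and Sdhb with 1.66-fold. The smallest rise called was that of Cox8a, 1.23-fold. In complex III, Uqcr10 (1.64-fold) and Uqcrq (1.49-fold) were called, while Uqcrh stood at 778, 969 and 980 CPM against 855, 877 and 1017 and was not.

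**Figure D3:**
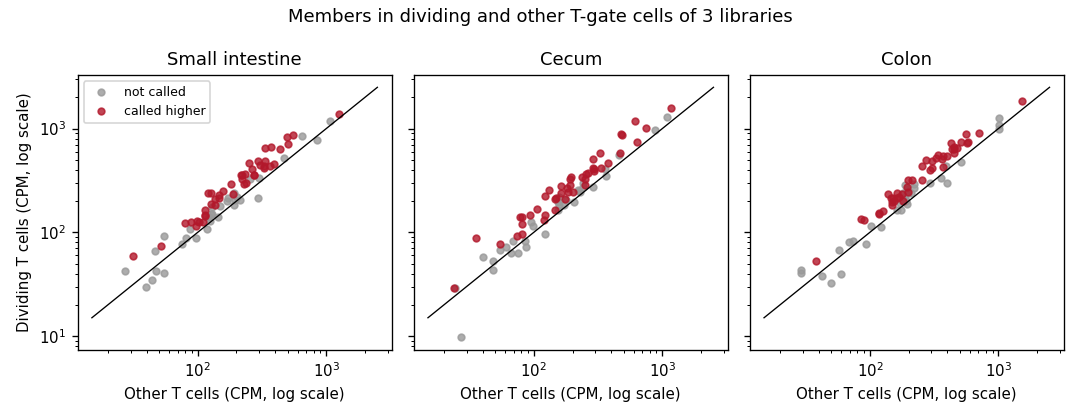
CPM of each member in dividing T cells (y axis, log scale) against the other T-gate cells (x axis, log scale) in 3 libraries, for members with at least 20 CPM in the other T cells; the line marks equal levels and red points are the members called higher in the joint edgeR fit. Most points lie above the line in each panel, 75 of 88 measured members in small intestine, 74 of 87 in cecum and 75 of 90 in colon. In the joint fit 79 of 88 members lay above 0 on the log2 scale, beside 4744 of 10829 genes.

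Depth and epithelial transcripts also differed between dividing and other T cells, with the epithelial ones lower in dividing cells of the cecum. Dividing cells had a median of 4435, 5226 and 7047 UMIs against 2302, 1751 and 2978 in the other T cells, and the part of this difference in the result was not tested. Epithelial markers summed to 1463 CPM in dividing colon T cells against 133 in the others; 1 cell held 1037 of the 1116 UMIs. In small intestine the values were 258 and 170 CPM and in cecum 72.7 and 123. The 2 colon cells and 5 small intestine cells with at least 2 distinct epithelial markers held 12.9% and 7.37% of the member UMIs of the dividing cells. With all such cells left out, a step chosen after the data were seen, the ratio of summed CPM was 1.29, 1.33 and 1.19, and 46 members were called higher, 44 of them shared, beside 12.6% of all genes. Atp5j was then 1.84-fold, Cox5a 1.69-fold and Cox5b 1.65-fold higher.

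Other lists rose alongside, and glycolysis and the proteasome core rose at least as far as the members by their medians. Of 13 glycolysis genes tested, 6 were called higher in dividing T cells, among them Tpi1 (2.11-fold), Pkm (1.89-fold), Gapdh (1.88-fold) and Ldha (1.79-fold); the first 3 act on the way from glucose to pyruvate, and Ldha turns pyruvate into lactate. Of 17 genes of the tricarboxylic acid cycle and pyruvate dehydrogenase, 6 were higher, including Idh3a (1.71-fold) and Mdh2 (1.47-fold). Cycs, the cytochrome c that carries electrons from complex III to complex IV, was 1.73-fold higher, and Cyc1, the complex III subunit that hands electrons to it, 1.57-fold. In the list of carriers and assembly factors that holds both, 4 of 28 were higher and 1 lower, a share of 14.3% near the 11.7% of all genes. Mitochondrial ribosomal proteins gave 20 of 75 higher and the proteasome core 11 of 17, or 64.7% beside 51.1% of the members. Median log2 values were 0.84 for glycolysis and 0.46 for the proteasome core. They were 0.29 for the tricarboxylic acid list and 0.22 for mitochondrial ribosomal proteins, beside 0.41 for the members. Among 12 regulators of mitochondrial genes, edgeR called 0: Tfam, which packages mitochondrial DNA, was at 1.26-fold (adjusted p 0.122) and Myc at 0.683-fold (adjusted p 0.143).

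Since these members moved together, their promoters were searched for 4 motifs that are known binding sequences of NRF1, YY1, ETS-family (GABP) and ERR factors, which are textbook regulators of respiratory genes. Windows of 300 bases, 250 before and 50 after the start, came from RefSeq on GRCm38.p6 and were found for 73 of the 94 members (78 windows). The NRF1 word (GCGCA, 1 free base, GCGC) was in 24.4% of member windows on either strand, against 10.9% of the windows of all genes tested in the dividing T-cell fit and 4.60% of all windows. The YY1 word AANATGGCG was in 14.1%, against 5.57% and 2.38%. The ETS word CCGGAAG was in 21.8%, against 19.5% and 8.86%. The ERR word TCAAGGTCA was in 1.28%, which is 1 window of 78, against 0.283% and 0.423%. No matches of different motifs overlapped in a member window. Among members called higher in dividing T cells, 11 of 38 with a window held the NRF1 word and 6 the YY1 word; among those tested and not called, 6 and 5 of 32 did. A match is a description of the letters, not a sign that a factor was bound.

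The windows below are shown because they carry these words in the members called higher, from complexes I, IV and V; capitals mark the motif, and each is read 5′ to 3′ on the strand of the gene. The first 5 hold the NRF1 word, which in Atp5g3 and Atp5o lies on the opposite strand, so that its reverse complement is printed:
Atp5g3, chr2:73911295-73911324, minus strand: gagccgcaccGCGCTTGCGCgcccagcccc
Atp5o, chr16:91931602-91931631, minus strand: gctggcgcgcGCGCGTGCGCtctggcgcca
Atp5k, chr5:108434430-108434459, minus strand: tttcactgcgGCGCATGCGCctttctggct
Ndufa11, chr17:56717692-56717721, plus strand: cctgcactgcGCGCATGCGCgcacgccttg
Cox6a1, chr5:115349056-115349085, minus strand: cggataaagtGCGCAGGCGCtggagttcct
The other 3 hold the YY1 word:
Atp5j, chr16:84835046-84835074, minus strand: aagtgtaggaAAGATGGCGgagtcttagc
Ndufc1, chr3:51408915-51408943, minus strand: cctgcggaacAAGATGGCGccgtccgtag
Atp5j2, chr5:145191500-145191528, minus strand: ccaggacttcAAGATGGCGtcactcggtg
Counted from the RefSeq start, the first base of the motif lay at 13 in Atp5g3, 10 in Atp5o, -50 in Atp5k, -60 in Ndufa11 and -117 in Cox6a1, and at -88, 23 and 24 in Atp5j, Ndufc1 and Atp5j2. All 3 YY1 words read AAGATGGCG.

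A division of the T gate by a transcript of the gamma-delta receptor gave no member calls. T cells with a UMI of Trdc, the constant chain of that receptor, were compared with other T cells in all 4 libraries. Gamma-delta cells in which no Trdc UMI was counted fall among the other T cells, and their number is not known. T cells with a Trdc UMI summed to 20513, 18810, 18588 and 23794 CPM. The other T cells had 20911, 18315, 18366 and 23033, so the groups lay close within each library. Of 88 members edgeR called 0, with 2 at an unadjusted p under 0.05, and DESeq2 called 0 with 0 at that level; 2.65% of all genes were called.

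Tissues were compared within the T gate by ratios of CPM. Each tissue has 1 library, so there is no replicate check and no test, and intervals are exact binomial ones for counting error. Members with at least 50 CPM in either library and 20 UMIs in all were used. Most members were lower in small intestine and cecum T cells than in colon. Against colon, 0 members were at least 1.5-fold higher in small intestine and 15 of 75 were lower, beside 10.3% of all genes higher and 9.35% lower. In cecum 0 were higher and 25 of 75 lower, beside 2.78% and 4.97%. In stomach 0 were higher and 7 of 75 lower, beside 12.7% and 18.5%. The median member stood at -0.30 on the log2 scale in small intestine against colon, where the median gene was at -0.02. It stood at -0.26 in cecum against colon, where the median gene was at 0.07, and at -0.15 in stomach against colon, where the median gene was at -0.06. In stomach 22 of 75 members were above their colon level, beside 45.3% of all genes. In cecum all 3 members of complex II were above it, beside 61.2% of all genes. Of 75 members, 70 were lower in small intestine than in colon T cells, beside 2319 of 4472 genes. For 64 members the interval lay below 1, beside 38.7% of all genes.

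The remaining pairs were stomach against small intestine, with 3 of 73 members at least 1.5-fold higher and 1 lower beside 14.6% and 22.2% of all genes, stomach against cecum, with 12 of 72 higher and 1 lower beside 12.6% and 19.4%, and small intestine against cecum, with 8 of 72 higher and 0 lower beside 11.4% and 10.8%. These comparisons share libraries, so they are not independent of each other.

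Small subunits carried the cecum to colon difference. Cox7c, one of the smallest complex IV subunits, had 298, 241, 147 and 463 CPM in T cells, 3.14-fold lower in cecum than in colon (2.93 to 3.37). Cox7a2 had 36.7, 53.8, 23.9 and 88.7 CPM and was 3.71-fold lower in cecum (3.14 to 4.41). Ndufa3, a small membrane subunit of complex I, had 140, 130, 66.9 and 190 CPM and was 2.84-fold lower, and Ndufa6 with 35.4, 47.2, 26.5 and 74.3 CPM was 2.81-fold lower. Atp5e had 790, 663, 461 and 1022 CPM, with the lowest level in cecum and the highest in colon. Larger subunits did not follow. Atp5b, the catalytic beta subunit of ATP synthase, had 694, 575, 754 and 714 CPM; Cox5a had 459, 520, 634 and 580, and Uqcrc2, a core subunit of complex III, had 183, 175, 242 and 212. Sdha had 159, 204, 230 and 194 CPM, so cecum was its highest library.

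The members were therefore ordered by coding length, the longest coding sequence of the gene in the GENCODE vM21 annotation. This split was made after the values were seen and is a description. Of 36 members with a coding length of at most 417 bases, all 36 were lower in cecum than in colon T cells and 22 at least 1.5-fold, with a median ratio of 0.567. Of 36 longer members, 16 were lower and 0 at least 1.5-fold, with a median ratio of 1.01. Across these 72 genes, which share 2 libraries and are not independent, Spearman's rho between length and ratio was 0.818. In B cells of the same libraries rho was 0.750 over 70 members.

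**Figure D4:**
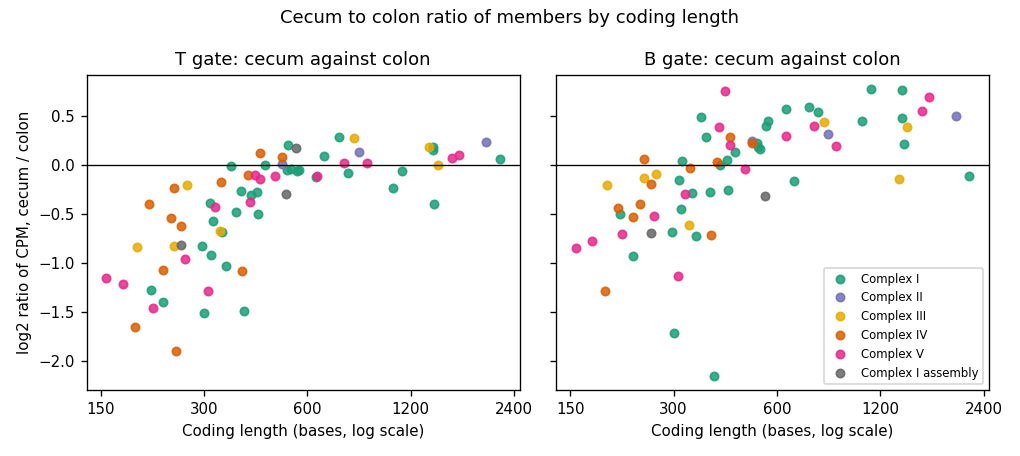
Cecum to colon ratio of CPM (log2, y axis) for each member with an annotated coding length (x axis, log scale), in the T gate and the B gate; colours mark the complex and the line marks equal levels. In T cells all 36 members with at most 417 coding bases lie below the line, and the longer 36 scatter about it with a median ratio of 1.01.

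The balance of short and long members had the same order of libraries in each gate, though not all neighbours differed beyond counting error. With 40 members at or below 417 coding bases and 44 above, the ratio of summed UMIs, short over long, was 1.13, 1.04, 0.819 and 1.29 in T cells. In B cells it was 1.15, 1.02, 0.776 and 1.25, and in NK/ILC1 cells 1.10, 1.01, 0.806 and 1.31. Macrophages had 0.974 in small intestine, 1.09 in stomach and 1.23 in colon. Mast cells had 1.15 in small intestine and 1.25 in stomach, and Siglech dendritic cells 0.835 in cecum and 1.14 in small intestine. The ratios thus ran in the order cecum, small intestine, stomach, colon in each gate with a sum, wherever those libraries were present. In T cells no intervals for counting error overlapped. Those of small intestine and stomach overlapped in B, NK/ILC1, macrophage and mast cells. In B cells the stomach interval (1.07 to 1.23) overlapped both small intestine (0.934 to 1.11) and colon (1.19 to 1.32). Cecum lay below the other libraries without overlap in each gate with a cecum sum. The long members alone summed to 9579, 8974, 9973 and 9911 CPM in T cells, so cecum and colon hardly differed in them, while the short ones summed to 10830, 9376, 8165 and 12816.

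Other genes did not follow length in this way between cecum and colon. Over 3993 genes that are not members, rho between coding length and the cecum to colon ratio in T cells was -0.05. The 310 of them with at most 417 coding bases had a median log2 ratio of 0.00 and the longer ones 0.08, although 13.2% of the short ones were at least 1.5-fold lower in cecum, against 2.12% of the longer ones. Between small intestine and colon, rho was 0.650 for members and 0.322 for other genes. Median depth per cell was 1707 UMIs in cecum, 2305 in stomach, 2475 in small intestine and 2986 in colon. In the short over long ratio of T cells, stomach (1.13) stood above small intestine (1.04). Whether depth, library preparation or the tissue itself set this ratio was not tested, and with 1 library per tissue library and tissue cannot be told apart. In B cells, 5 members were at least 1.5-fold higher in cecum than in colon and 14 lower of 72, beside 12.3% and 8.52% of all genes. That balance was 13 higher and 11 lower with stricter gates, and 25 higher and 7 lower in cells with at least 1500 UMIs.

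Uqcrfs1, the Rieske iron-sulfur protein of complex III, stood apart in stomach. In T cells it had 70.8, 171, 240 and 198 CPM. Stomach was 3.39-fold lower than cecum (2.60 to 4.51), 2.79-fold lower than colon (2.14 to 3.70) and 2.41-fold lower than small intestine (1.84 to 3.21), from 56 UMIs in stomach. Stomach also had the lowest value in the other gates with a stomach sum: 126 CPM against 182 to 247 in B cells, 78.7 against 98.6 to 192 in NK/ILC1 cells, 93.9 against 119 and 238 in macrophages, and 71.8 against 147 in mast cells. Some of these orders rest on few UMIs. The Poisson intervals of stomach and small intestine overlapped in NK/ILC1 cells (61.6 to 99.1 and 45.1 to 187 CPM), in macrophages (78.9 to 111 and 66.9 to 197) and in B cells (79.3 to 192 and 147 to 342), where the stomach also overlapped colon (141 to 232). Its neighbours in complex III did not share this pattern: Uqcrc1 had 152, 142, 180 and 180 CPM and Uqcrb 167, 132, 121 and 194 in T cells. Ndufa1 showed the opposite order between stomach and cecum, with 206, 117, 81.8 and 198 CPM in T cells, 2.52-fold higher in stomach than in cecum (2.10 to 3.01).

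Several complex IV subunits exist as pairs of genes, of which one is used widely and the other in particular tissues, such as heart and skeletal muscle for Cox6a2 and testis for Cox6b2. Cox6a2 was the clearest cell-type mark among the members. In Siglech dendritic cells it had 1637 CPM in small intestine and 728 in cecum, and it made up 1154 of 1403 UMIs of the Cox6a1 and Cox6a2 pair in small intestine, 82.3% (exact 95% binomial interval 80.2 to 84.2), and 65 of 90 in cecum, 72.2% (61.8 to 81.1). In T cells it was 0.655% for small intestine, 0.133% for cecum and 0.229% for colon; stomach had 0 of 346, which allows up to 0.867%. A Cox6a2 UMI was found in 163 of 175 Siglech cells of the small intestine, 93.1%, at a median depth of 3542 UMIs, against 0.614% of 2442 T cells at a median of 2326. In cecum 16 of 23 Siglech cells held one. No T cell held more than 1 such UMI, and the source of these UMIs was not tested.

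The widely used partner, Cox6a1, had 353 and 280 CPM in Siglech cells of small intestine and cecum beside 349 and 338 in T cells of those libraries. Cox4i1, the large nuclear subunit of complex IV, had 1382 and 1423 CPM against 1073 and 1092, and was 1.46-fold higher (adjusted p 0.0427 in edgeR). Ndufa10, a complex I subunit, had 80.9 and 67.2 CPM against 195 and 159, and was called lower (SE 0.32 on the log2 scale, adjusted p 0.0243 in edgeR). In the edgeR fit 2 of 82 members were called higher and 1 lower with TMM scaling; Cox6a2, at or near 0 in the other gates, is 1 of the 2 and passed the count filter through the Siglech cells. These calls stood beside 15% and 12% of all genes. Total UMIs moved the median gene from -0.07 to -0.27, and 1082 of 8550 genes were then called higher and 1371 lower. With total UMIs, with cells of at least 1500 UMIs, and without stomach or colon, 1 was higher and 2 lower. With all genes of at least 1 UMI, no library block, stricter gates, or that gate and T cells alone, 1 was higher and 1 lower. The 2 higher calls, Cox6a2 and Cox4i1, thus did not both hold in these settings. DESeq2 called 4 higher and 2 lower.

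**Figure D5:**
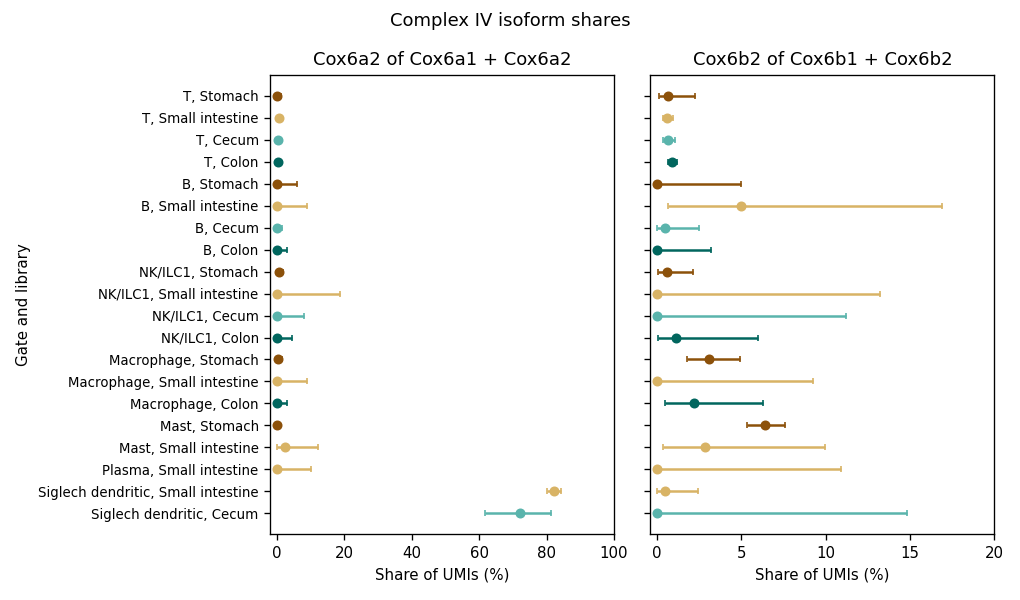
Share of UMIs (percent, x axis) of Cox6a2 in the Cox6a1 and Cox6a2 pair (left, axis to 100) and of Cox6b2 in the Cox6b1 and Cox6b2 pair (right, axis to 20) for each gate and library (y axis); bars are exact 95% binomial intervals for counting error. Cox6a2 reaches 82.3% and 72.2% in Siglech dendritic cells and at most 2.27% elsewhere, and Cox6b2 stands at 6.37% in stomach mast cells.

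Cox6b2 had its highest share in stomach mast cells, 123 of 1930 UMIs of its pair or 6.37% (5.32 to 7.56). T cells of the 4 libraries had 0.574% to 0.890%, and stomach macrophages had 16 of 521, 3.07% (1.77 to 4.94). The small intestine held 2 of 70 in mast cells, 2.86% (0.348 to 9.94), and 2 of 40 in B cells, too few to place. Cox7a1, the muscle partner of Cox7a2, had 57 UMIs in colon T cells, 26 of them in 1 cell; among dividing colon T cells it had 31 UMIs, and 5 when the 2 cells with epithelial markers were left out. It made up 19 of 136 UMIs of its pair in stomach mast cells, 14.0% (8.63 to 20.9), and 5.31% in colon T cells.

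The c ring of ATP synthase is encoded by 3 genes with different leader peptides and 1 mature protein. Atp5g3 led in T cells, with 52.8%, 56.0%, 49.2% and 46.3% of the trio's UMIs. In stomach mast cells the order differed: Atp5g2 held 38.3% (36.5 to 40.1) and Atp5g3 33.7% (31.9 to 35.4), while in stomach T cells Atp5g2 held 22.0% (18.9 to 25.5). The 86 UMIs of small intestine mast cells kept Atp5g3 first, with 39.5% against 32.6% for Atp5g2 and intervals that overlap. Siglech dendritic cells of the small intestine divided the trio more evenly, with 29.8% for Atp5g1, 31.6% for Atp5g2 and 38.6% for Atp5g3.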

How the data were processed

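The authors deposited whole-number UMI counts per symbol and cell barcode, 1 matrix per library, made with Cell Ranger and Seurat 3.0.0 on GRCm38 (mm10), per the submitters' processing notes. Barcodes with under 200 listed genes were removed. The members, gates and lists were chosen with earlier results of these data known. Gates needed 2 UMIs of CD3 chain genes (T), 2 B or NK markers, 3 macrophage, mast or dendritic markers, or 2 plasma markers with 10 Jchain UMIs; sums used at least 20 cells, and tissue ratios at least 100. Sums were tested with edgeR 4.0.16 (quasi-likelihood, TMM, filterByExpr, library block) over genes listed in all 4 libraries, with DESeq2 1.42.0 as an alternative. Named genes were each complex's most abundant member, up to 4 with the largest change each way in a comparison, isoform pairs, the c-ring trio and members listed in fewer than 4 libraries; others named were chosen after their values were seen. On simulated counts the test recovered 68.1% of 2-fold changes for B against T (7680 genes, 4.41% of calls false). For dividing T it recovered 56.1% (10668 genes, 2.65% false). The largest member changes called were 1.84-fold for B and 1.83-fold for dividing T. Recovery of changes under 2-fold was not simulated. Depth was 8568438 to 12988676 UMIs per library; intervals cover counting error only. A further T-cell subset is not reported here.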

Additional observations from a re-analysis of the deposited data

How the results depend on the processing

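Gates and T-cell subsets were paired by library, which was the block; the labels give no replicate numbers. Calls of members were 19 for B cells with total UMIs, 3 with no library block and 4 with stricter gates. For macrophages they were 8 with DESeq2, 39 with total UMIs (all lower), 9 with all genes (6 lower) and 2 with that gate and T cells alone. For mast cells they were 7 with total UMIs (all lower), 4 with all genes, 6 with no library block, and 5 with stricter gates, with deeper cells or with that gate and T cells alone. For Siglech cells they were 6 with DESeq2, and 3 (1 higher, 2 lower) with total UMIs, with deeper cells, without stomach and without colon. They were 2 (1 higher, 1 lower) with all genes, no library block, stricter gates, or that gate and T cells alone. For dividing T cells the fit with no library block gave 6. Leaving out 1 library gave 2 to 14 calls for B, 3 to 6 for macrophage, 3 to 4 for mast, 3 to 3 for Siglech, 31 to 35 for dividing and 0 to 0 for NK/ILC1 and Trdc cells. A fit without a library that leaves a gate in 1 library could not be made. The cause was not tested in any of these settings. With total UMIs, all genes called lower numbered 1471 of 8550 for B, 3248 for macrophage and 2290 for mast cells.

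For tissue ratios in T cells, a 2-fold limit gave 1 (lower) for stomach against small intestine, 5 for stomach against cecum, 3 for stomach against colon, 1 for small intestine against cecum, 0 for small intestine against colon and 14 for cecum against colon. A minimum of 10 CPM gave 8, 20 and 13 for stomach against small intestine, stomach against cecum and small intestine against cecum, and TMM gave 20 for stomach against cecum. For B cells, cecum against colon, a 2-fold limit gave 4, stricter gates 24 (13 higher, 11 lower) and deeper cells 32 (25 higher, 7 lower). Isoform shares stayed inside their intervals in 131 of 131 cases with deeper cells and 130 of 131 with stricter gates; summed CPM moved in 48 of 140 with the set-aside genes left out, 17 with stricter gates and 11 with deeper cells. Depth limits shares from gates with few cells.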
